A study of Mus musculus with 12 samples.

Results

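The interferon regulatory factors (IRFs) were followed in mouse pancreatic stellate cells (PSCs) as 7 genes, Irf1, Irf2, Irf3, Irf5, Irf7, Irf8 and Irf9, which were picked by gene symbol from the 39179 genes of the count table. RNA was measured in 12 libraries of mCherry-labelled PSCs of strain C57BL/6, an SV40-immortalised line, sorted by FACS on mCherry after 72 h. The cells had been grown alone (mono-PSCs), with EGFP-labelled PCCs, a pancreatic cancer cell line (2W-PSCs), or with PCCs and TagBFP-labelled MØs, a macrophage cell line (3W-PSCs), with 4 libraries per culture. All cultures were set up in low-serum medium with the same total number of cells. The study asked how macrophages and cancer cells together change the PSCs.

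IRFs are transcription factors that bind GAAA repeats through a shared N-terminal domain, and they sit on both sides of the interferon system. IRF3 lies latent in the cytoplasm of most cells and IRF7, its closest relative, is itself made in response to interferon. Both are phosphorylated by TBK1 or IKKε below nucleic acid sensors and then switch on interferon genes. Secreted interferon acts through JAK kinases on STAT proteins, which join IRF9 to form the complex ISGF3. IRF1 is an activator induced by interferon γ and inflammatory cytokines, and IRF2 competes with it for the same sites and mostly represses. IRF5 works below Toll-like receptors and MyD88, and IRF8 is best known from myeloid and B cells.

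Where transcription starts bears on these genes because several are themselves targets of STATs, NFκB or other IRFs, so upstream sequence was read from RefSeq (GRCm38.p6), which held all 7 members. The motifs below were searched on both strands of the 250 bases before each start: an ISRE core, the site of ISGF3 and the IRFs (GAAANNGAAA), a GAS element, the site of STAT dimers (TTCNNNGAA), and an NFκB site (GGGNNNNTCC). Of 32851 RefSeq windows of that length, 2.98% held the ISRE letters, 7.02% the GAS letters and 16.5% the NFκB letters. The windows of Irf1 and Irf7 are shown because these genes were called between 3W-PSCs and 2W-PSCs, and the far end of the Irf2 window because it was the only member with an ISRE match. Matches are in capitals, and the runs end before the first annotated exonic base of the gene.
Irf1, chr11:53769764-53770013, plus strand: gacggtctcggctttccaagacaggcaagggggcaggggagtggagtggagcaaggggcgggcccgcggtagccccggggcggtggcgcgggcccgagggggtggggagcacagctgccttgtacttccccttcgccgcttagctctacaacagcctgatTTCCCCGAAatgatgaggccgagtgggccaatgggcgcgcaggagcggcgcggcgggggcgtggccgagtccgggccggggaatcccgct
Irf2, chr8:46739495-46739594, plus strand: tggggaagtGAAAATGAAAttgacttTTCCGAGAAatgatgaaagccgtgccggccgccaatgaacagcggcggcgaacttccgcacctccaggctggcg
Irf7, chr7:141266482-141266674, minus strand: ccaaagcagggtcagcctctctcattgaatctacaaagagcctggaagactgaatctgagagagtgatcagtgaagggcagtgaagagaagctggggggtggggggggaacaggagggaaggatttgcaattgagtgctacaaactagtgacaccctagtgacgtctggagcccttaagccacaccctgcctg
The Irf1 window held 1 GAS match, which lies 90 to 82 bases before the start. The Irf2 window held the ISRE match at 241 to 232 bases, a GAS match at 224 to 216 bases and, beyond the stretch shown, an NFκB match at 17 to 8 bases before the start. Irf8 held 2 GAS matches, and the windows of Irf3, Irf5, Irf7 and Irf9 held none of these motifs. The windows of Irf9 lie inside its annotated gene, so the bases before that gene were not searched. A match describes letters and was not tested as a site. Sites with other letters were not searched. The bases ggggaatccc near the end of the Irf1 run miss the NFκB letters searched at only 1 base, where the search required T. Whether they form an NFκB site was not tested.

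Total counts per library ran from 4561817 to 8093368, and levels are CPM, the counts of a gene set against the TMM-scaled total of its library over the genes that passed the filter on low counts. Since the kit primes from the poly(A) tail and gives 1 fragment per transcript, CPM of different genes can be set side by side without a length correction. Exons shared with other genes, given below, could still shift the count of a member. Fibroblast genes were abundant in every library but lower in 3W-PSCs: the summed CPM of 14 PSC markers, led by the matrix gene Sparc, lay between 9227 and 12855 in mono-PSCs, between 12833 and 19935 in 2W-PSCs and between 7457 and 8944 in 3W-PSCs. Of 12 tested from 2W- to 3W-PSCs, 7 fell and 1 rose, where 10.7% of all genes tested rose or fell. Their median log2 fold change was -0.70, and the part of this shift in the members' values was not tested. Among these markers desmin (Des), a stellate cell filament, never passed 25 counts. The summed CPM of 18 macrophage markers lay between 2.44 and 8.93 in mono-PSCs, between 4.91 and 13.0 in 2W-PSCs and between 26.7 and 69.4 among 3W-PSC libraries, of which replicate 4 was the highest. In 3W-PSCs Mpeg1 was the highest of them with a mean of 6.99 CPM, Ptprc reached at most 20 counts, and Emr1 and Lyz1 were at 0 in every library. Cybb had 0 counts in every 2W-PSC library and 32 to 73 in 3W-PSCs. Of 6 macrophage markers tested from 2W- to 3W-PSCs, 3 rose and 0 fell, with a median log2 fold change of 2.52. Over all genes tested, 5.73% rose. None of the 18 passed the filter on low counts from mono- to 2W-PSCs. The 6 were thus tested through their 3W-PSC level. The summed CPM of 15 epithelial markers lay between 79.9 and 132 in mono-PSCs, between 162 and 253 in 2W-PSCs and between 171 and 192 among 3W-PSC libraries. Sox9 was the highest of these in each culture, and Krt18 had at most 1 count in a mono-PSC library and at least 120 in a library of co-cultured PSCs. The 2W-PSC library of replicate 2 stood apart for several members below, and several results are given with and without it. Of the 12 libraries it had the lowest total, 4561817 counts, and the fewest genes with a count, 12772.

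Together the 7 members had a summed level of 284 ± 25.2 CPM in mono-PSCs (mean ± SD, n = 4), which was 382 ± 51.2 CPM in 2W-PSCs and reached 596 ± 59.8 CPM in 3W-PSCs. Irf1 and Irf7 rose from 2W- to 3W-PSCs, by 1.11 and 1.43 on the log2 scale. Irf1, Irf2, Irf5, Irf7 and Irf9 rose from mono- to 3W-PSCs, with Irf5 changing most, and no member was called between mono- and 2W-PSCs. Irf3 was called in no comparison and Irf8 was too low to test.

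Calls were made where the quasi-likelihood test of edgeR gave a p-value under 0.05 after Benjamini-Hochberg adjustment over all genes tested. From 2W- to 3W-PSCs, 2 of the 6 members tested were called, both higher, where 10.7% of 11513 genes were called and 5.73% were called higher. The libraries of 3 members did not overlap, against 21.3% of all genes. From mono- to 2W-PSCs, 0 of 6 were called, by edgeR and by DESeq2, where 0.991% of 11199 genes were called and 0.839% were called higher. Unadjusted p-values were under 0.05 for 3 members, and the libraries of 1 did not overlap, against 5.75% of genes. From mono- to 3W-PSCs, 5 of 6 were called, all higher, where 26.4% of 11551 genes were called and 13.4% were called higher. The median log2 fold change of the 6 members was 0.72, 0.43 and 0.94 in the 3 comparisons, against 0.0025, 0.020 and 0.012 for all genes tested. Irf5 passed the filter on low counts through the co-cultures, so these counts and medians are a description, and the comparisons share libraries in pairs.

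**Figure D1:**
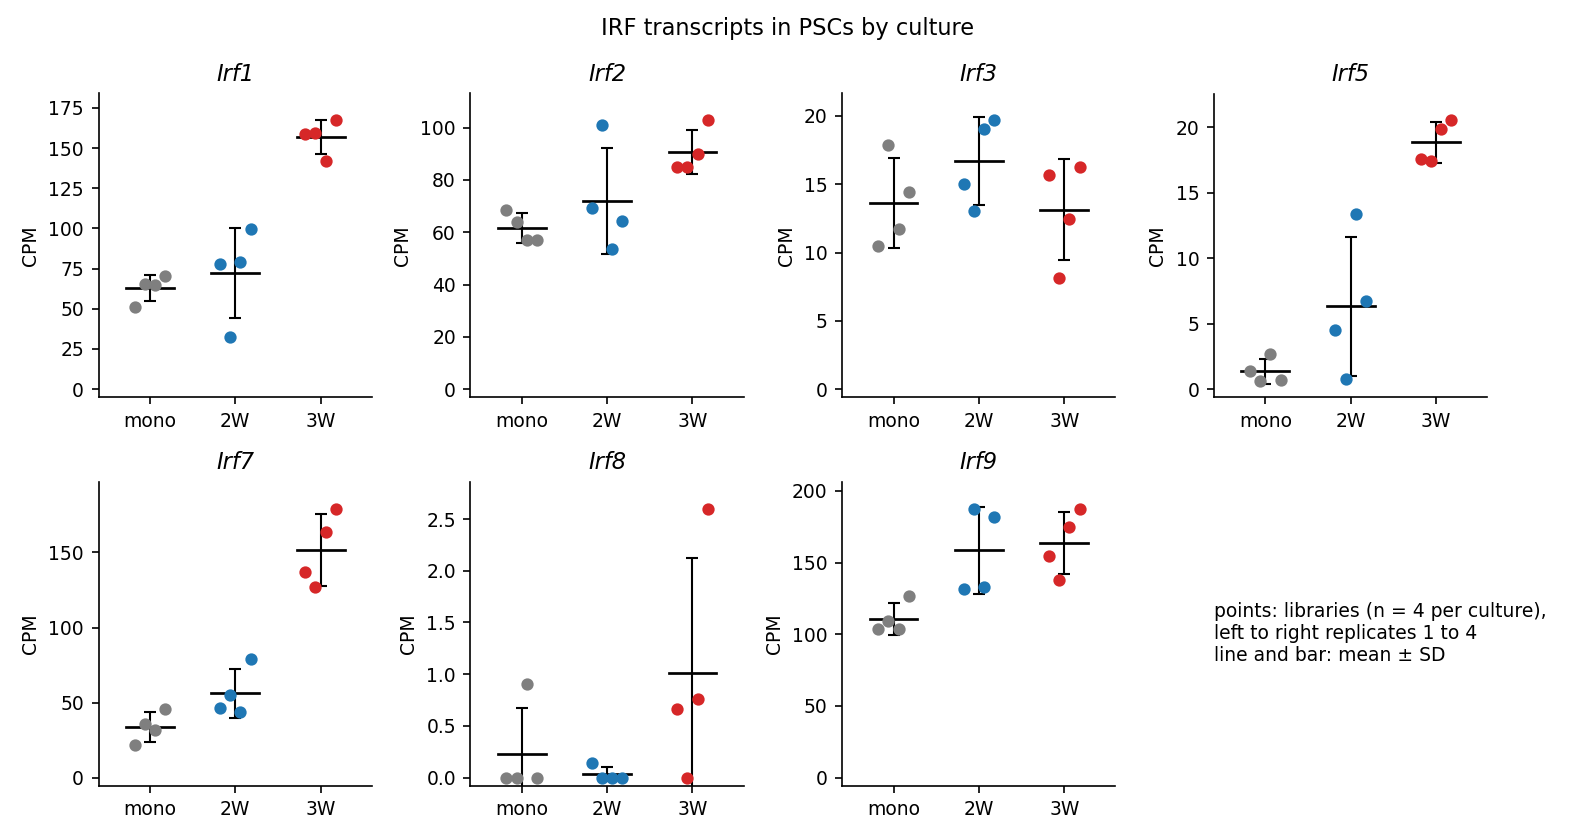
Level of each IRF gene in CPM (y axis, linear from 0) in the 4 libraries of each culture (points; mono, 2W and 3W on the x axis), with the mean and SD (for Irf8 the SD bar is cut off at 0). All 3W-PSC libraries of Irf1, Irf5 and Irf7 sit above all others, while Irf3 and, between the co-cultures, Irf9 overlap.

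Irf1, on chr11:53770014-53778374 (GRCm38), stood at 51.0, 65.5, 64.5 and 70.6 CPM in the mono-PSC libraries, in the order of replicates 1 to 4. It stood at 77.9, 32.7, 78.9 and 99.7 CPM in 2W-PSCs. In 3W-PSCs it reached 159, 159.7, 142 and 167 CPM, so that every 3W-PSC library was above every other library. The means were 62.9 ± 8.38, 72.3 ± 28.2 and 157 ± 10.6 CPM in mono-, 2W- and 3W-PSCs. Irf1 rose from 2W- to 3W-PSCs by 1.11 ± 0.27 on the log2 scale (± SE; edgeR, adjusted p = 0.0262) and from mono- to 3W-PSCs by 1.31 ± 0.15 (adjusted p = 4.76e-06). Its log2 fold change from mono- to 2W-PSCs was 0.22 ± 0.28 (adjusted p = 0.999), which was 0.45 (adjusted p = 0.372) without 2W-PSC replicate 2 and 0.027 without 2W-PSC replicate 4. Leaving out 2W-PSC replicate 1 or any 3W-PSC replicate moved the adjusted p from 2W- to 3W-PSCs above 0.05, to between 0.0527 and 0.0791, with the log2 fold change between 1.08 and 1.16. Without 2W-PSC replicate 2, the lowest library, the log2 fold change from 2W- to 3W-PSCs was 0.87 with an adjusted p of 0.000694.

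Irf2, the competitor of Irf1, lies on chr8:46739732-46847458 and was close to Irf1 in mono-PSCs. It stood at 68.6, 63.9, 57.1 and 57.0 CPM in mono-PSCs and at 69.3, 101, 53.7 and 64.3 CPM in 2W-PSCs. The 3W-PSC libraries held 84.9, 85.1, 89.9 and 103 CPM, all above mono-PSCs and overlapping 2W-PSCs only through replicate 2 of the latter. Irf2 rose from mono- to 3W-PSCs by 0.55 ± 0.15 on the log2 scale (edgeR, adjusted p = 0.0106), a call lost with all 12 libraries in one fit (adjusted p = 0.0514). From 2W- to 3W-PSCs the log2 fold change was 0.33 ± 0.20 (adjusted p = 0.324). Without 2W-PSC replicate 2 it was 0.53 with an adjusted p of 0.0201.

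Irf7, on chr7:141262706-141266481, was called higher in 3W-PSCs against both other cultures. It stood at 21.9, 35.7, 31.9 and 45.6 CPM in mono-PSCs and at 46.3, 54.8, 43.9 and 79.3 CPM in 2W-PSCs. The 3W-PSC libraries held 137, 127, 163 and 179 CPM, all above the highest 2W-PSC library. The means were 33.8 ± 9.79, 56.1 ± 16.2 and 152 ± 23.8 CPM in mono-, 2W- and 3W-PSCs. Irf7 was 1.43 ± 0.22 higher on the log2 scale in 3W- than in 2W-PSCs (edgeR, adjusted p = 0.00222) and 2.16 ± 0.20 higher than in mono-PSCs (adjusted p = 4.91e-07), and both calls held with any single library left out. Between mono- and 2W-PSCs the log2 fold change was 0.75 ± 0.26, with libraries that overlap and an adjusted p of 0.379. With the replicate number as a block in edgeR it was 0.76, with an adjusted p of 0.0915. Phrf1, on the other strand, shares 45 exonic bases at the 3′ end of Irf7 and rose from mono- to 3W-PSCs by 0.47 on the log2 scale (edgeR, adjusted p = 0.0381). Its log2 fold change from 2W- to 3W-PSCs was 0.33 (adjusted p = 0.297). Irf3, the closest relative of Irf7, lies on the same chromosome at chr7:44997648-45002848 and had no such pattern. It stood between 10.4 and 17.9 CPM in mono-PSCs, 13.0 and 19.7 CPM in 2W-PSCs and 8.14 and 16.2 CPM in 3W-PSCs. Its log2 fold change was -0.35 ± 0.27 from 2W- to 3W-PSCs (adjusted p = 0.438), 0.32 ± 0.27 from mono- to 2W-PSCs (adjusted p = 0.994) and -0.06 ± 0.26 from mono- to 3W-PSCs (adjusted p = 0.897), and an SE of that size leaves a moderate change in either direction undetected.

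Irf5, on chr6:29526625-29541871, was scarce in PSCs grown alone and had the largest log2 fold change from mono- to 3W-PSCs of the members tested. It stood at 1.39, 0.595, 2.7 and 0.722 CPM in mono-PSCs. The 2W-PSC libraries were far apart, at 4.49, 0.738, 13.4 and 6.72 CPM, with replicate 2 inside the range of mono-PSCs. The 3W-PSC libraries were close together at 17.6, 17.4, 19.9 and 20.5 CPM and above all others. Irf5 rose from mono- to 3W-PSCs by 3.81 ± 0.37 on the log2 scale, 14.0-fold (edgeR, adjusted p = 7.24e-07). The log2 fold change from 2W- to 3W-PSCs was 1.54 ± 0.51 with an adjusted p of 0.0802, although the libraries did not overlap. DESeq2 gave an adjusted p of 0.0257 for it and edgeR without the filter on low counts 0.0440, and with single libraries left out it ran from 0.0138 to 0.169. Between mono- and 2W-PSCs it was 2.26 ± 0.75 (adjusted p = 0.313), and 2.61 with an adjusted p of 0.0229 without 2W-PSC replicate 2.

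Because IRF5 and IRF8 are best known from myeloid cells, their levels are set beside the macrophage markers. In the 3W-PSC libraries of replicates 1 to 4 the summed macrophage markers were 33.3, 26.7, 29.9 and 69.4 CPM, with replicate 4 the highest, while Irf5 was 20.5 CPM there and 17.4 to 19.9 CPM in the other 3. In 2W cultures, which held no MØs, Irf5 was at 4.49, 0.738, 13.4 and 6.72 CPM in replicates 1 to 4. The summed macrophage markers there were 4.91, 13.0, 6.04 and 6.08 CPM. The summed epithelial markers of these 2W-PSC libraries were 182, 162, 164 and 253 CPM. Irf8, on chr8:120736358-120756694, had 5, 0, 6 and 20 counts in 3W-PSCs, highest in the library with the most macrophage marker counts. It had 0, 0, 5 and 0 counts in mono-PSCs and 1, 0, 0 and 0 in 2W-PSCs. The study describes the sorted PSCs as positive for mCherry and negative for EGFP, the label of the PCCs, and TagBFP, the label of the MØs. The part of macrophage or PCC RNA in Irf5, Irf8 and the other members was not tested. In bulk RNA a few cells with much transcript cannot be told apart from many with little. Irf5 shares 411 exonic bases at its 3′ end with Tnpo3, a nuclear import gene on the other strand, and the strand setting of the counting is not given in the sources used here. Tnpo3 had a log2 fold change of 0.22 from mono- to 3W-PSCs (edgeR, adjusted p = 0.335).

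Irf9, on chr14:55603571-55610030, was the most abundant member in every library of mono- and 2W-PSCs. It stood at 104, 109, 103 and 127 CPM in mono-PSCs and at 131, 187, 133 and 182 CPM in 2W-PSCs, with no overlap. In 3W-PSCs it stood at 155, 138, 175 and 187 CPM, inside the range of 2W-PSCs. Irf9 rose from mono- to 3W-PSCs by 0.56 ± 0.15 on the log2 scale (edgeR, adjusted p = 0.0109). Without 3W-PSC replicate 4 the adjusted p was 0.0507. The log2 fold change from mono- to 2W-PSCs was 0.54 ± 0.19 (adjusted p = 0.409, unadjusted p = 0.0162), and from 2W- to 3W-PSCs it was 0.04 ± 0.18 (adjusted p = 0.907). Without 2W-PSC replicate 2 the change from mono- to 2W-PSCs was 0.44 (edgeR, adjusted p = 0.393). Rnf31, a ubiquitin ligase gene on the same strand, shares 123 exonic bases with Irf9, none of them in its last 500. It rose by 2.19 on the log2 scale from 2W- to 3W-PSCs (edgeR, adjusted p = 0.0483) and by 1.82 from mono- to 3W-PSCs (adjusted p = 0.0229), at a mean of 4.11 CPM in 3W-PSCs. Whether Irf9 changed by a different amount than Irf1 or Irf7 in either step was not tested.

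**Figure D2:**
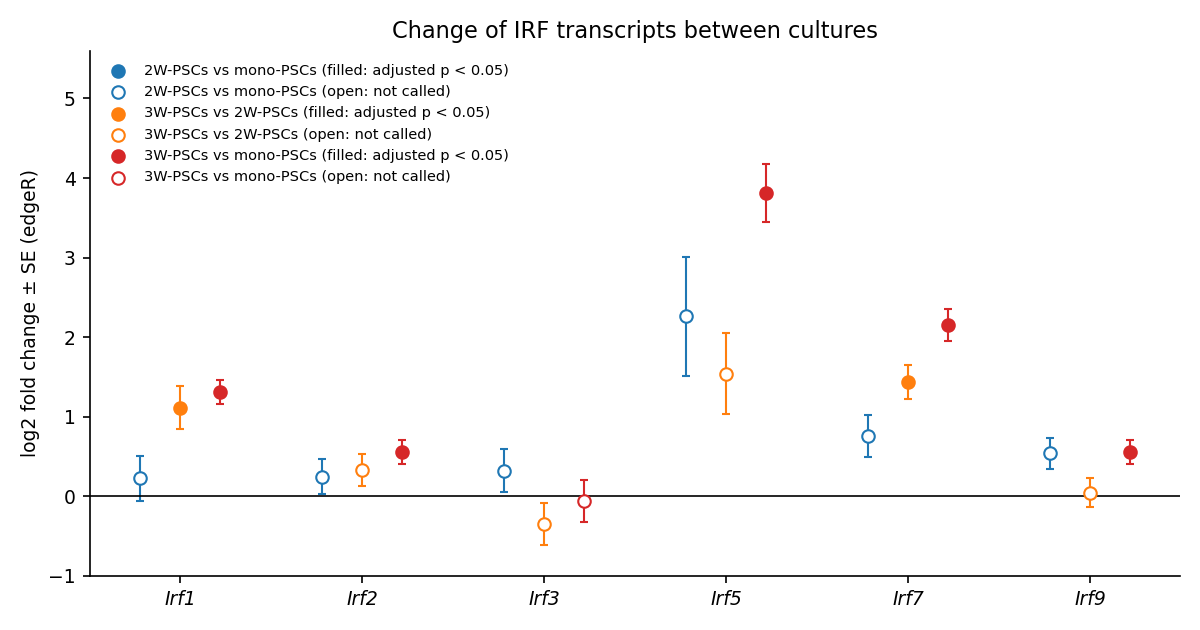
Log2 fold change ± SE from edgeR (y axis) of the 6 members tested (x axis) in the 3 comparisons of cultures (colours), with filled points for adjusted p under 0.05 and open points for others. Irf1 and Irf7 are filled in 3W- against 2W-PSCs, all but Irf3 are filled in 3W- against mono-PSCs, and no point is filled in 2W- against mono-PSCs.

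Irf4, a family member known from lymphocytes, had 0 counts in all 12 libraries, which allows a level of up to 0.349 to 0.738 CPM depending on the library (3 counts of the scaled total; counting error only). Of the 3 genes for IRF2 binding proteins, which act as co-repressors, Irf2bp2 rose from 2W- to 3W-PSCs by 0.75 ± 0.17 on the log2 scale (edgeR, adjusted p = 0.0195). It stood at 95.1, 74.5, 109.7 and 88.5 CPM in 2W-PSCs and at 164, 163, 167 and 125 CPM in 3W-PSCs. In the same comparison Irf2bp1 had a log2 fold change of -0.05 (adjusted p = 0.910) and Irf2bpl one of 0.32 (adjusted p = 0.249).

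The order of the members shifted with the culture. In mono-PSCs Irf9 led at 111 ± 10.9 CPM, followed by Irf1 and Irf2, which did not differ beyond their spread, then Irf7, Irf3, Irf5 and Irf8. In 2W-PSCs Irf9 led at 158 ± 30.3 CPM, and Irf1, Irf2 and Irf7 overlapped below it. In 3W-PSCs Irf9 at 164 ± 21.7 CPM, Irf1 at 157 ± 10.6 CPM and Irf7 at 152 ± 23.8 CPM overlapped one another and stood above Irf2 at 90.7 ± 8.39 CPM. Irf5 was above Irf3 in all 4 libraries of 3W-PSCs and below it in the other 8. The part of the exons that Irf5 shares with Tnpo3 in this order was not tested. As a share of the members' counts, Irf9 made up 38.9% ± 1.55 in mono-PSCs, 41.4% ± 4.58 in 2W-PSCs and 27.4% ± 1.33 in 3W-PSCs. Irf7 made up 11.7% ± 2.45, 14.5% ± 2.13 and 25.3% ± 1.68 in the same order. The share of Irf3 was 4.76% ± 0.92, 4.41% ± 0.91 and 2.19% ± 0.53, and that of Irf5 was 0.492% ± 0.37, 1.72% ± 1.56 and 3.17% ± 0.13.

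**Figure D3:**
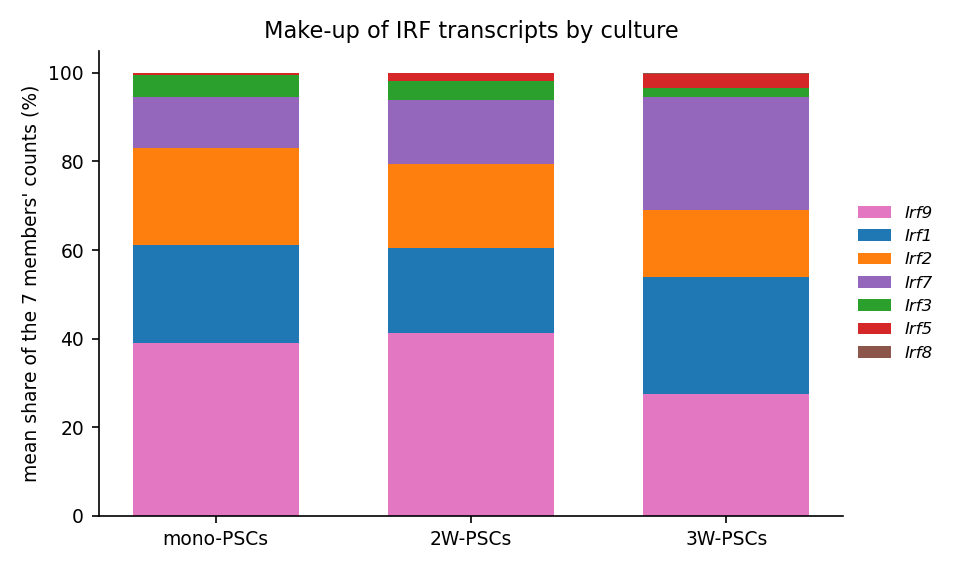
Mean share of each of the 7 genes in the summed counts of the 7 (y axis, percent, stacked bars) in mono-, 2W- and 3W-PSCs (x axis, 4 libraries each). Irf9 takes 38.9%, 41.4% and 27.4%, and Irf7 takes 11.7%, 14.5% and 25.3%.

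Ratios of paired members within a library do not depend on library scaling, and 6 such comparisons were made with two-sided exact permutation tests, which with 4 libraries against 4 cannot go below p = 0.0286. The log2 ratio of the activator Irf1 to the repressor Irf2 was 0.02 ± 0.32 in mono-PSCs, -0.07 ± 1.06 in 2W-PSCs and 0.79 ± 0.13 in 3W-PSCs (SD, n = 4). The 2W-PSC libraries stood at 0.17, -1.62, 0.55 and 0.63, so the wide SD came from replicate 2. The mean of 3W-PSCs exceeded that of 2W-PSCs by 0.86 and that of mono-PSCs by 0.77, in both cases with no overlap between libraries (exact permutation p = 0.0286, adjusted p = 0.0429). Without 2W-PSC replicate 2 the difference from 2W-PSCs was 0.34, still with no overlap. Between 2W- and mono-PSCs it was -0.09 (exact p = 0.943), and 0.43 without 2W-PSC replicate 2 (exact p = 0.171). The log2 ratio of the inducible Irf7 to the latent Irf3 was 1.29 ± 0.31 in mono-PSCs, 1.72 ± 0.40 in 2W-PSCs and 3.56 ± 0.36 in 3W-PSCs. In linear terms Irf7 had 1.99 to 3.15 times the counts of Irf3 in mono-PSCs, 2.29 to 4.18 times in 2W-PSCs and 8.70 to 15.5 times in 3W-PSCs. The mean of 3W-PSCs exceeded that of 2W-PSCs by 1.84 and that of mono-PSCs by 2.27 (exact permutation p = 0.0286, adjusted p = 0.0429), and the difference between 2W- and mono-PSCs was 0.43 (exact p = 0.143, adjusted p = 0.171).

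**Figure D4:**
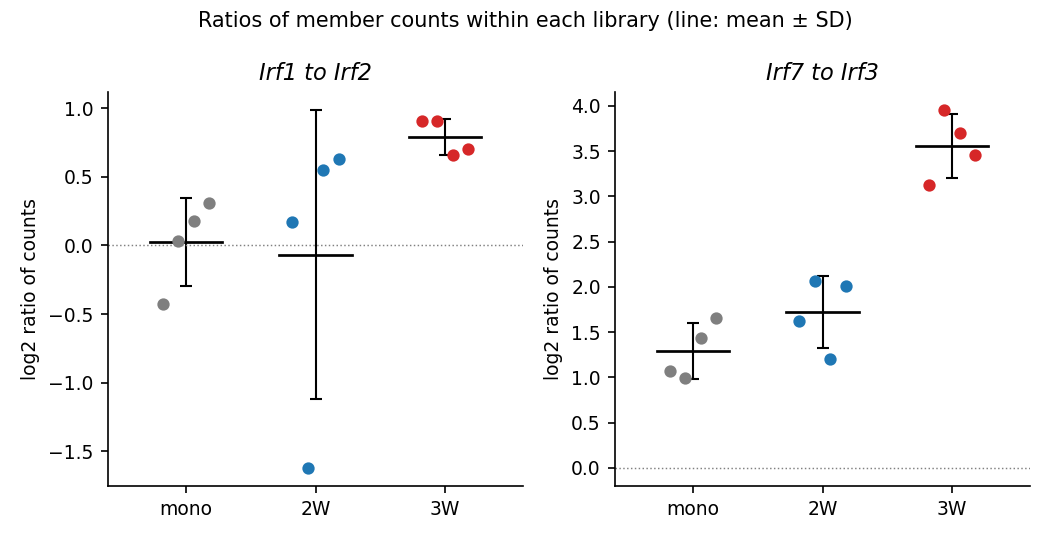
Log2 ratio of counts of Irf1 to Irf2 (left) and of Irf7 to Irf3 (right) in each library (points, y axis) by culture (x axis), with the mean and SD. The 3W-PSC libraries lie above all others in both panels, and 2W-PSC replicate 2 lies at -1.62 for Irf1 to Irf2.

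Genes that act before the IRFs rose in part. Of 18 genes that sense nucleic acid or bacterial products or carry the signal to IRF3, IRF5 and IRF7, 16 were tested. Of these, 5 rose and 0 fell from 2W- to 3W-PSCs (8 rose without 2W-PSC replicate 2), where 5.73% of all genes tested were called higher. The median log2 fold change of the 16 was 0.45. Those called were the RNA sensors Ddx58 (RIG-I), at 1.12 ± 0.17 on the log2 scale (edgeR, adjusted p = 0.00253), and Ifih1 (MDA5), at 1.05 ± 0.15 (adjusted p = 0.00179), the endosomal receptor Tlr3, at 1.44 ± 0.29 (adjusted p = 0.0106), the adaptor Myd88, at 1.15 ± 0.20 (adjusted p = 0.00522), and the kinase gene Ikbke, at 1.83 ± 0.47 (adjusted p = 0.0319), whose libraries overlapped. Ikbke overlapped only through 2W-PSC replicate 2, at 9.35 CPM against 7.77 CPM in the lowest 3W-PSC library. Tlr3 stood at 7.02 to 20.2 CPM in 2W-PSCs and at 31.7 to 35.7 CPM in 3W-PSCs. Tbk1, the constitutive partner of Ikbke, had a log2 fold change of 0.65 ± 0.26 (adjusted p = 0.142), Mavs, the adaptor of the RNA sensors, 0.25 ± 0.25 (adjusted p = 0.558), and the DNA sensor cGAS (Mb21d1) 0.15 ± 0.17 (adjusted p = 0.609). Between mono- and 2W-PSCs 0 of 16 were called by edgeR (0.991% of all genes tested), and 2 of the 16 had an unadjusted p under 0.05.

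Of 21 interferon genes listed, 19 were in the table and none had enough counts to test. Ifnb1, the type I interferon gene that IRF3 switches on first, was at 0 in all 12 libraries, and only Ifnz and Ifne had any count, at most 6 in a library. The interferon receptor chains and their kinases were expressed. Of 9 genes of receptors, JAKs and STATs, 4 rose and 0 fell from 2W- to 3W-PSCs (5 rose without 2W-PSC replicate 2), with a median log2 fold change of 0.83. Over all genes tested, 5.73% were called higher. Stat2, which binds IRF9, rose by 1.19 ± 0.16 on the log2 scale (edgeR, adjusted p = 0.000936), from between 62.7 and 79.8 CPM in 2W-PSCs to between 136 and 173 CPM in 3W-PSCs. The receptor chain Ifnar2 rose by 1.09 ± 0.16, Jak2 by 1.73 ± 0.25 and Stat3 by 1.78 ± 0.19, while Ifnar1 had a log2 fold change of 0.83 ± 0.34 (adjusted p = 0.152), Jak1 0.12 ± 0.20 (adjusted p = 0.758) and Ifngr1 0.03 ± 0.17 (adjusted p = 0.927). Of these 9 genes, 0 were called by edgeR from mono- to 2W-PSCs (0.991% of all genes tested), and 0 of the 9 had an unadjusted p under 0.05.

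Genes known as targets of ISGF3, IRF3 or IRF7 mostly rose in 3W-PSCs. Of 34 such genes, 25 rose and 1 fell from 2W- to 3W-PSCs (29 and 1 without 2W-PSC replicate 2), with a median log2 fold change of 1.38, and from mono- to 3W-PSCs 32 rose and 1 fell. Over all genes tested, 5.73% were called higher from 2W- to 3W-PSCs and 13.4% from mono- to 3W-PSCs. Between mono- and 2W-PSCs 29 of the 34 had enough counts, 1 was called (6 without 2W-PSC replicate 2) and the median was 0.74, where 0.839% of all genes tested were called higher. The 1 called was Usp18, a protease that damps interferon signalling, which stood between 9.58 and 16.9 CPM in mono-PSCs, between 32.3 and 48.5 CPM in 2W-PSCs and between 49.7 and 94.1 CPM in 3W-PSCs. Among the largest changes from 2W- to 3W-PSCs were the antiviral gene Rsad2 (viperin), from 16.1 ± 3.67 to 104 ± 19.9 CPM, its neighbour Cmpk2, from 4.00 ± 1.47 to 25.6 ± 4.62 CPM, and the ADP-ribosyltransferase gene Parp14, from 29.4 ± 7.61 to 155 ± 20.0 CPM. Of the RNA-sensing 2′-5′ oligoadenylate synthetases, Oas2 stood at 1.45 ± 0.61 and 19.3 ± 1.48 CPM, Oas1a at 2.44 ± 2.03 and 13.1 ± 1.47 CPM and Oas3 at no more than 2 counts in any 2W-PSC library and 54 to 78 counts in 3W-PSCs. Ifi27 went the other way, from 463 ± 142 to 260 ± 21.7 CPM (edgeR, log2 fold change -0.84, adjusted p = 0.0422). Its libraries overlapped only through 2W-PSC replicate 2, at 257 CPM.

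Of 24 genes known to need IRF1 for part of their induction, 20 were tested from 2W- to 3W-PSCs. Of these, 15 rose (17 without 2W-PSC replicate 2) and 0 fell, where 5.73% of all genes tested were called higher. Their median log2 fold change was 2.19, also with the gene at 0 in all 2W-PSC libraries set to its lower bound. Of the 16 tested from mono- to 2W-PSCs, 1 was called, the GTPase gene Gbp3, which stood between 9.75 and 20.5 CPM in mono-PSCs, between 26.4 and 49.9 CPM in 2W-PSCs and between 121 and 196 CPM in 3W-PSCs. The T cell chemokine Cxcl10 stood between 9.87 and 15.5 CPM in mono-PSCs and between 2.95 and 24.3 CPM in 2W-PSCs, lowest in replicate 2, where Irf1 was lowest too. In 3W-PSCs it stood between 269 and 445 CPM. Its log2 fold change from 2W- to 3W-PSCs was 4.43 ± 0.48 (edgeR, adjusted p = 0.000296). Psmb9, a subunit of the immunoproteasome, went from 2.69 ± 1.69 to 25.4 ± 2.78 CPM. The related chemokine genes Cxcl9 and Cxcl11, the GTPase gene Gbp5 and Nlrc5, a regulator of MHC class I genes, had 0 to 6 counts in each 2W-PSC library and 22 to 95 in each 3W-PSC library, too few in the former for a fold to be given. The 4 lists were put together with earlier results of these data known, and their direction is not independent evidence for that of the members. Cxcl9, Cxcl11, Gbp5, Nlrc5 and Oas3, with few counts in 2W-PSCs, passed the filter on low counts through 3W-PSCs. Their rise was thus set in part by the filter, and the counts and medians of the lists are a description.

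**Figure D5:**
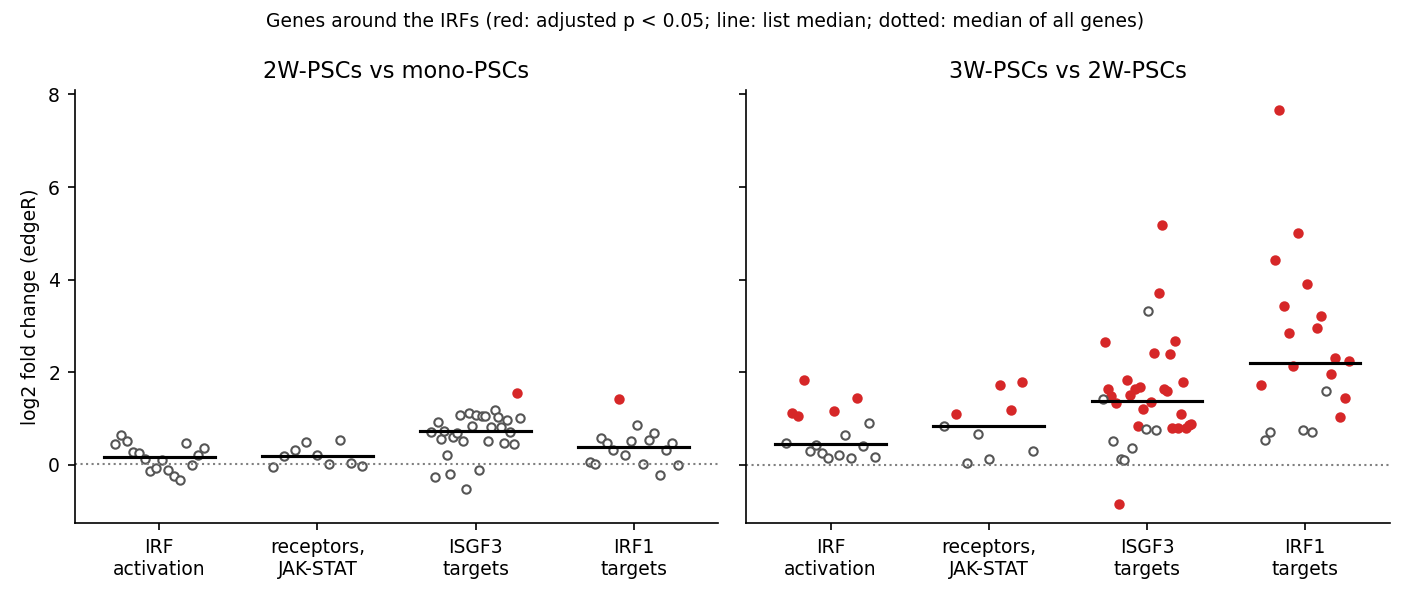
Log2 fold change from edgeR (y axis) of the tested genes of 4 lists (x axis) from mono- to 2W-PSCs (left) and from 2W- to 3W-PSCs (right), red for adjusted p under 0.05, with the list median (line) and the median of all genes (dotted). Red points above 0 number 0, 0, 1 and 1 on the left and 5, 4, 25 and 15 on the right, and 1 red point, Ifi27, lies below 0.

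Among genes with a mean log2 CPM above 3, those whose level ran most like each member were found by Pearson's r of log2 CPM over the 12 libraries, which fall into 3 cultures and share their scaling, so r describes these libraries and carries no p. The genes most like Irf7 were Trim25, a ubiquitin ligase of the RIG-I pathway (r = 0.987), Tor3a (r = 0.978) and the interferon-induced GTPase gene Mx2 (r = 0.975). Irf1 ran most like Gpr176 (r = 0.963), the kinase gene Ripk2 (r = 0.958) and Cxcl10 (r = 0.957). Irf5 ran most like Phlda1 (r = 0.958), Igfbp7 (r = 0.953) and Slc43a3 (r = 0.949). Irf2 ran most like N4bp1, Pdcd11 and Zak, with r between 0.935 and 0.962, and Irf9 like Cachd1, Shisa5 and the transglutaminase gene Tgm2, with r between 0.919 and 0.934. The highest values for Irf3 were lower, at 0.860 for Gnb1l, 0.852 for Rnaseh2c and 0.824 for Lyn. Among the members themselves, r was 0.865 between Irf1 and Irf5, 0.830 between Irf1 and Irf7 and 0.780 between Irf5 and Irf7, and between -0.28 and 0.25 for Irf3 with the others.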

How the data were processed

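Mouse PSCs of 3 cultures were measured in 4 libraries each. The authors made 3′ libraries from polyadenylated RNA with the QuantSeq FWD kit, trimmed the reads after a FastQC check, aligned them to GRCm38 (STAR) and counted them on Ensembl genes (featureCounts). What they deposited is raw counts, whole numbers with a different total in each library, where the methods say normalised counts. The strand setting and the use of molecular identifiers are not given in the sources used here, so depth statements cover counting error only. Total counts per library were between 4561817 and 8093368.

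From these counts, edgeR 4.0.16 under R 4.3.3 was run on the 8 libraries of each pair of cultures (TMM, filterByExpr, glmQLFit and glmQLFTest, no block), with Benjamini-Hochberg adjustment over all genes tested and a threshold of 0.05. The study's own tests used DESeq2, which was run here (version 1.42.0) as an alternative. SE is the log2 fold change divided by the root of F. CPM use TMM factors over all 12 libraries and totals over the genes that passed filterByExpr there. Ratios within a library added 0.5 to both counts and were tested by exact permutation. Fold changes were checked on simulated counts. The alternatives were DESeq2 size factors, other filters, all 12 libraries in one fit, a replicate block, each library left out, and leaving out the most abundant gene and mitochondrial rRNA genes.

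Exon overlaps and gene positions come from GENCODE M21 on GRCm38. No 75-base window of the last 500 bases of a member's transcripts was found in another gene's. Overlapping exons of other genes were also found for Irf1 (Gm17334, 135 bases), Irf3 (Bcl2l12, 88 bases), Irf7 (Phrf1, 45 bases) and Irf9 (Rnf31, 123 bases, same strand). The labels number replicates 1 to 4 in each culture but do not say that a number marks a shared batch or separate thawed cells, so p-values measure the spread between these libraries, which may be technical. The members and gene lists were chosen with earlier results of these data known. Some genes of the lists are not reported here and were left out of the counts. Named genes are the members, Irf4 and IRF2 binding protein genes, tested genes of the 2 signalling lists, from each target list the 6 with the largest called change without overlap, called genes of the opposite direction, the leading marker genes, and the 3 genes most like each member. Usp18 and Gbp3 are the only target genes called from mono- to 2W-PSCs. They and Krt18, Des, Ptprc, Emr1, Lyz1 and Cybb were chosen after their values were seen.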

Additional observations from a re-analysis of the deposited data

Results flagged for a closer look

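In 27 groups of 4 libraries (7 members and 2 ratios in 3 cultures), the highest and lowest library were set against the others by Dixon's ratio, which flags about 1 in 20 groups by chance. It picked out 2 groups, both of Irf8. In mono-PSCs, replicate 3 had 0.901 CPM (5 counts) and the other 3 libraries had 0. In 2W-PSCs, replicate 1 had 0.14 CPM (1 count) and the other 3 had 0, a difference that 1 count makes. The 2W-PSC library of replicate 2 was not picked out for any member or ratio.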

How the results depend on the processing

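With 4 libraries per culture and at most 8093368 counts each, Irf8 could not be tested and moderate changes of Irf3 would not have been seen. The number of members called from 2W- to 3W-PSCs ran from 1 to 4 with single libraries left out (4 without 2W-PSC replicate 2: Irf1, Irf2, Irf5 and Irf7), that from mono- to 2W-PSCs from 0 to 1 and that from mono- to 3W-PSCs from 4 to 5. It was 3 from 2W- to 3W-PSCs without the filter on low counts and with DESeq2. Over all genes, the number called with single libraries left out ran from 497 (without 3W-PSC replicate 2) to 2107 (without 2W-PSC replicate 2) from 2W- to 3W-PSCs, from 61 (without 2W-PSC or mono-PSC replicate 4) to 233 (without 2W-PSC replicate 2) from mono- to 2W-PSCs and from 2228 to 4266 from mono- to 3W-PSCs. From mono- to 2W-PSCs 177 genes were called without a filter, 57 with at least 10 counts in every library, 262 with all 12 libraries in one fit and 275 with DESeq2. The causes were not tested.

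The log2 fold change of Irf9 from 2W- to 3W-PSCs changed sign without 2W-PSC replicate 1 (-0.046), 2W-PSC replicate 3 (-0.037) or 3W-PSC replicate 4 (-0.025), with a range of -0.046 to 0.13 over single libraries left out. That of Irf3 from mono- to 3W-PSCs changed sign without mono-PSC replicate 2 (0.088) or 3W-PSC replicate 2 (0.12), with a range of -0.17 to 0.12. Irf2 from mono- to 3W-PSCs had an adjusted p of 0.0514 with all 12 libraries in one fit. With single libraries left out, 3 against 4 libraries cannot go below an exact p of 0.0571, and the differences in the log2 ratio of Irf1 to Irf2 ran from 0.34 to 1.09 (3W- against 2W-PSCs), from 0.62 to 0.87 (3W- against mono-PSCs) and from -0.32 to 0.43 (2W- against mono-PSCs, 0.43 without 2W-PSC replicate 2 and 0.0049 without mono-PSC replicate 4). Those of Irf7 to Irf3 ran from 1.66 to 1.98, from 2.14 to 2.42 and from 0.32 to 0.61.

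The replicate numbers were not taken to pair the libraries, since the labels name no shared source. Whether same-numbered libraries share one was not tested. Same-numbered deviations from the culture means correlated between -0.05 and 0.15 for 3W- and 2W-PSCs, between 0.099 and 0.34 for 2W- and mono-PSCs (above 0.1 in 3 of 4 pairs) and between 0.00 and 0.11 for 3W- and mono-PSCs. Differently numbered pairs ran from -0.17 to 0.11, from -0.26 to 0.22 and from -0.12 to 0.072 in the same order. With the replicate block, 752 genes were called from 2W- to 3W-PSCs and 135 from mono- to 2W-PSCs, the number of members called was 2, 0 and 5 in the 3 comparisons, and the 4 called ratio differences (0.86, 0.77, 1.84 and 2.27) had an exact p of 0.125, the smallest that 4 pairs allow.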
